A study of Drosophila melanogaster with 35 samples.

Results

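The genes described here encode subunits of the Drosophila 26S proteasome. They were chosen by name: every gene on the array with a probe set of its own (a group of short probes whose signals are summarized to 1 value) and a current symbol that begins with Prosalpha, Prosbeta, Rpn or Rpt followed by a digit. The rule used no measured value. It gave 39 of the 10844 genes analysed, carried by 41 of the 13966 probe sets tested. Of these, 12 encode subunits of the core particle (Prosalpha2 to Prosalpha7 and Prosbeta2 to Prosbeta7), 14 encode subunits of the regulatory particle, and 13 are testis forms, whose symbols end in T or R with or without a number. Prosbeta1, Rpt1, Rpt6, Rpn9, Rpn10, Prosbeta5R2 and Rpt6R were not analysed here, and Prosalpha1 shares its probe set with its testis form Prosalpha1R. All 39 genes lay above the 25th percentile of mean signal.

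The proteasome degrades proteins that carry ubiquitin chains. Its core particle is a barrel of stacked rings: outer rings of alpha subunits form the gate, and inner rings of beta subunits hold the protease sites. Regulatory particles cap the barrel; in each, a base with a ring of Rpt ATPases unfolds the substrate and threads it into the core, and a lid of Rpn subunits removes the ubiquitin. Drosophila has duplicated many of these genes, and the duplicates are expressed mainly in the male germ line, where Prosalpha6T is needed for sperm to mature. In bulk RNA of whole flies, fewer cells of a type and less RNA per cell cannot be told apart.

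RNA came from groups of 25 whole adult males, 1 group of flies per array, on 35 Affymetrix DrosGenome1 arrays. All flies were heterozygous for the transgene P{w+ rtTA}(3)[E2], a drug-controlled transcription factor, in a w[1118] hybrid background with Oregon-R. The labels name no inducing drug. The aging study had 6 Young controls (10 days old), 6 Hyperoxia samples (8 days old, 100% oxygen for 5 days) and 4 Old samples (61 days old). The stress study had 4 Stress controls (9 days old) and 3 Heat stress samples (9 days old, 37 degrees C for 5.5 hours in vials with 1% sucrose). It also had 4 Ionizing radiation samples (11 days old, 5666 rads per hour for 16 hours, then 2 days on sucrose), 4 Hydrogen peroxide samples (11 days old, 3% hydrogen peroxide in sucrose for 2 days) and 4 Sugar samples (11 days old, 2 days on 1% sucrose alone). Old and Hyperoxia flies were taken at about 50% survival of their cohorts. Each treatment was compared with the controls of its own study, and Ionizing radiation and Hydrogen peroxide also with Sugar, which shares their age and sucrose vials.

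Values below are normalized signals, that is, deposited intensities after quantile normalization of all arrays. Fold changes are on the scale log2(signal + 38.6) with their standard error (SE). Calls of up- or down-regulation required that a gene passed the nested F-test of limma at a false discovery rate (FDR) of 1% and differed at least 1.5-fold, while each adjusted p-value comes from the moderated test of limma for that comparison. The Sugar arrays had been deposited on another scale (trimmed means of 107 to 167, against 1000 on the other 31), so every comparison with Sugar rests on the normalization. The ratio of 3' to 5' actin control probes, a sign of RNA quality, was 283 on Old replicate 2, 7.44 on Ionizing radiation replicate 1 and 1.48 to 7.09 on the others. Testis markers varied widely in mean signal, from 55.8 (comr) to 37324 (Mst84Dc), with fzo at 304, betaTub85D at 7687 and Mst84Da at 34937. Of 11 markers of female tissues, Cp16 averaged the least at 71.8 and Cp18 the most at 993, so the averages of both lists overlapped.

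Over the 39 genes, calls against controls were few; the share of all genes called is given beside each count. In Old flies 1 gene was up-regulated (5.49% of all genes were) and 7 were down-regulated (9.42% of all genes). In Hyperoxia none was up-regulated (3.45%) or down-regulated (4.82%) by limma; at an unadjusted p under 0.05, 3 were higher (14.8% of all genes) and 3 lower (13.4%). In Heat stress 2 were up-regulated (5.98%) and 2 down-regulated (8.06%). In Ionizing radiation 3 were up-regulated (7.84%) and 1 was down-regulated (8.23%). In Hydrogen peroxide 2 were up-regulated (9.00%) and 1 was down-regulated (9.74%). In Sugar none was up-regulated (2.92%) or down-regulated (2.19%) by limma, and at an unadjusted p under 0.05, 1 was higher (13.2% of all genes) and 7 were lower (10.5%). Of the counts of called genes, only the 7 down-regulated in Old flies, all of them testis forms, were a larger share of the 39 than of all genes. At the unadjusted p, the 7 lower in Sugar were also a larger share. So were 14 higher (1894 of 10844 genes) and 10 lower (2094) in Old flies. The same held for 9 higher (1755) and 11 lower (1858) in Heat stress, 18 higher after Ionizing radiation (1998) and 17 higher in Hydrogen peroxide (2338). Radiation and peroxide had 3 lower each (1781 and 2030 of all genes), smaller shares.

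**Figure D1:**
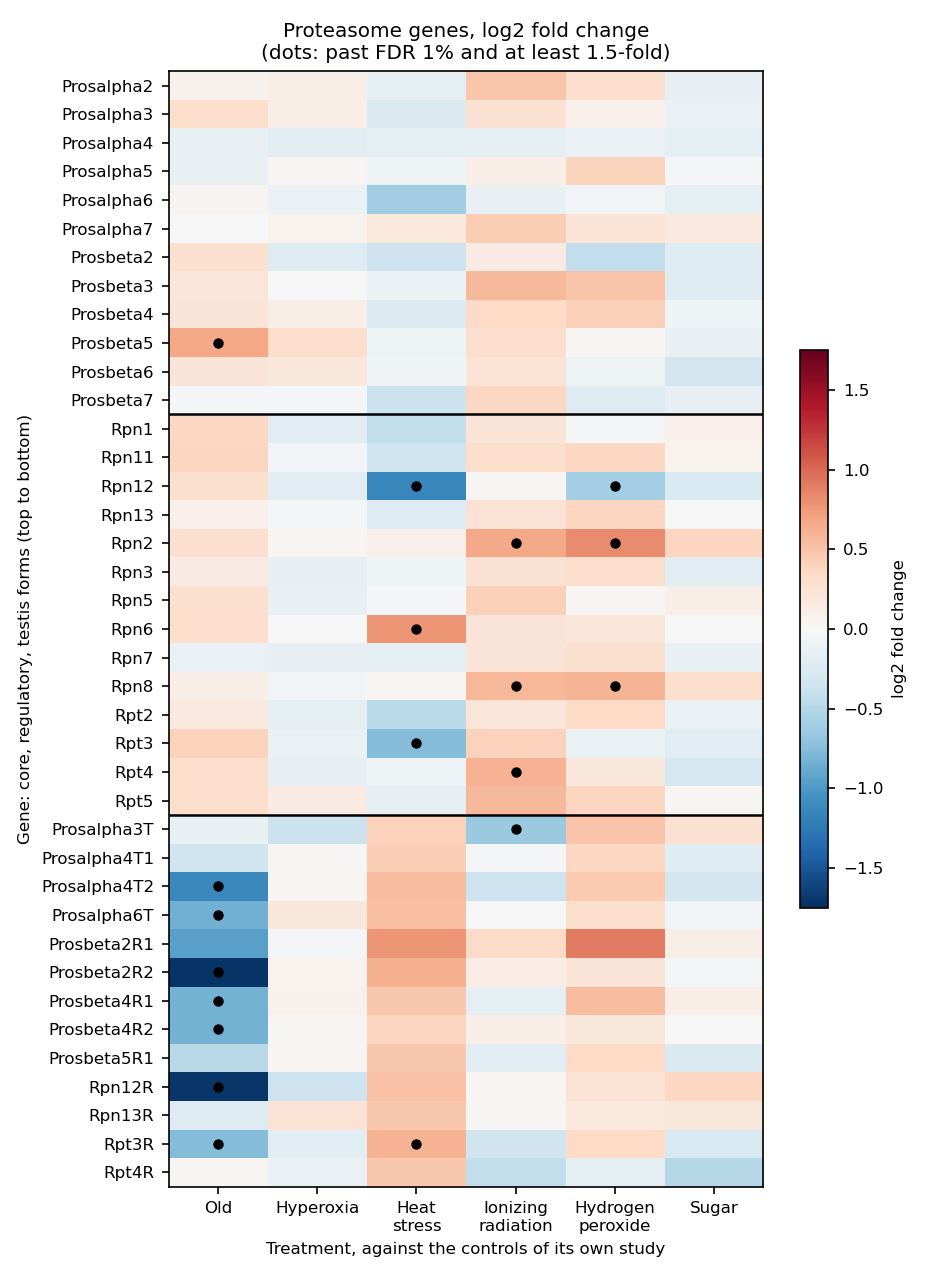
Log2 fold change of each of the 39 proteasome genes (rows, in the order core particle, regulatory particle, testis forms, separated by lines) in each treatment against the controls of its own study (columns). Colour gives the log2 fold change and dots mark called genes: 12 of the 13 testis forms are blue in Old and all 13 are red in Heat stress, and 24 of the 26 core and regulatory genes are above 0 in Ionizing radiation.

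The core and regulatory genes were mostly slightly higher after Ionizing radiation. Their log2 fold changes had medians of 0.28 in both classes, against 0.03 over all genes, and 24 of the 26 were above 0, against 5753 of 10844 genes. With no minimum fold change, 11 of the 26 passed the moderated test at an FDR of 1% (9.42% of all genes did so upward), and in 19 of the 26 all irradiated arrays lay above all Stress controls (15.3% of all genes). None of the 26 passed the test downward (9.14% of all genes); the 2 below 0 were Prosalpha4 (-0.16) and Prosalpha6 (-0.13). Ionizing radiation replicate 1 had the highest class mean and an elevated actin ratio: without it 0 genes were called up-regulated and 7 passed the FDR at any fold, while the medians were 0.32 for the core and 0.30 for the regulatory genes. Over all 39 genes the count past the FDR upward was 4 when arrays were scaled to a common median instead, 2 in a fit of these 2 groups alone and 6 without Stress controls replicate 4. Markers of the male accessory gland moved in the same arrays. Of 11 measured, 9 were down-regulated and 1 was up-regulated, and their summed signal ran from 110667 to 120674 in Stress controls and from 46539 to 50064 after radiation; its part in the proteasome values was not tested.

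In Heat stress the direction was the opposite. Of the same 26 genes, 22 were below 0, with medians of -0.15 for the core and -0.17 for the regulatory genes against 0.00 over all genes, and 6 passed the FDR downward at any fold (8.41% of all genes) and 1, Rpn6, upward (6.42%). The 6 became 3 without Heat stress replicate 1 or 2. The arrays of 10 of the 26 lay wholly below the controls, where 17.6% of all genes did. Sugar against Stress controls gave a similar core median of -0.14, with 11 of 12 core genes below 0 as in Heat stress, and a regulatory median of 0.00. Heat stress flies were also in sucrose vials, unlike Stress controls, and the part of the vials in these values was not tested. All 13 testis forms were above 0 in Heat stress, with a median of 0.48. A direct comparison of Ionizing radiation with Heat stress gave 11 core and regulatory genes higher at an FDR of 1% and 1.5-fold (9.93% of all genes) and 5 testis forms lower (9.21%). The higher ones were Prosalpha2, Prosbeta3, Prosbeta4, Prosbeta7, Rpn1, Rpn11, Rpn12, Rpt2, Rpt3, Rpt4 and Rpt5. Without Ionizing radiation replicate 1, 7 were higher and 4 lower, and in a fit of the 2 groups alone 4 were higher.

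In Old flies 22 of the 26 core and regulatory genes were above 0, with medians of 0.14 and 0.28 against 0.03 over all genes, and 3 passed the FDR upward at any fold (7.78% of all genes). The testis forms had a median of -0.83, and 8 of 13 passed the FDR downward at any fold (11.8% of all genes). In a fit of Old and Young controls alone, 3 testis forms were called down. In Hydrogen peroxide the regulatory genes had a median of 0.29 and the core genes one of 0.06, against 0.05 over all genes, and the testis forms one of 0.34. In Hyperoxia the medians were 0.04, -0.12 and 0.02 for core, regulatory and testis forms, and in Sugar they were -0.14, 0.00 and -0.03. At any fold, 1 gene passed the FDR upward in Hyperoxia (5.41% of all genes) and none downward (5.78%) by limma, and in Sugar none passed upward (2.70%) or downward (1.60%). In Hydrogen peroxide 7 passed upward and 2 downward (11.2% of all genes in either direction). By array values, 7 of the 26 core and regulatory genes lay wholly above Young controls in Old flies (8.74% of all genes) and 5 testis forms wholly below (11.0%). In Hyperoxia 2 of the 26 lay above (5.78%) and 1 below (6.24%). In Hydrogen peroxide 11 of the 26 lay above Stress controls (18.0%) and 3 below (15.1%), and in Sugar 2 lay above (13.5%) and 8 below (11.1%).

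**Figure D2:**
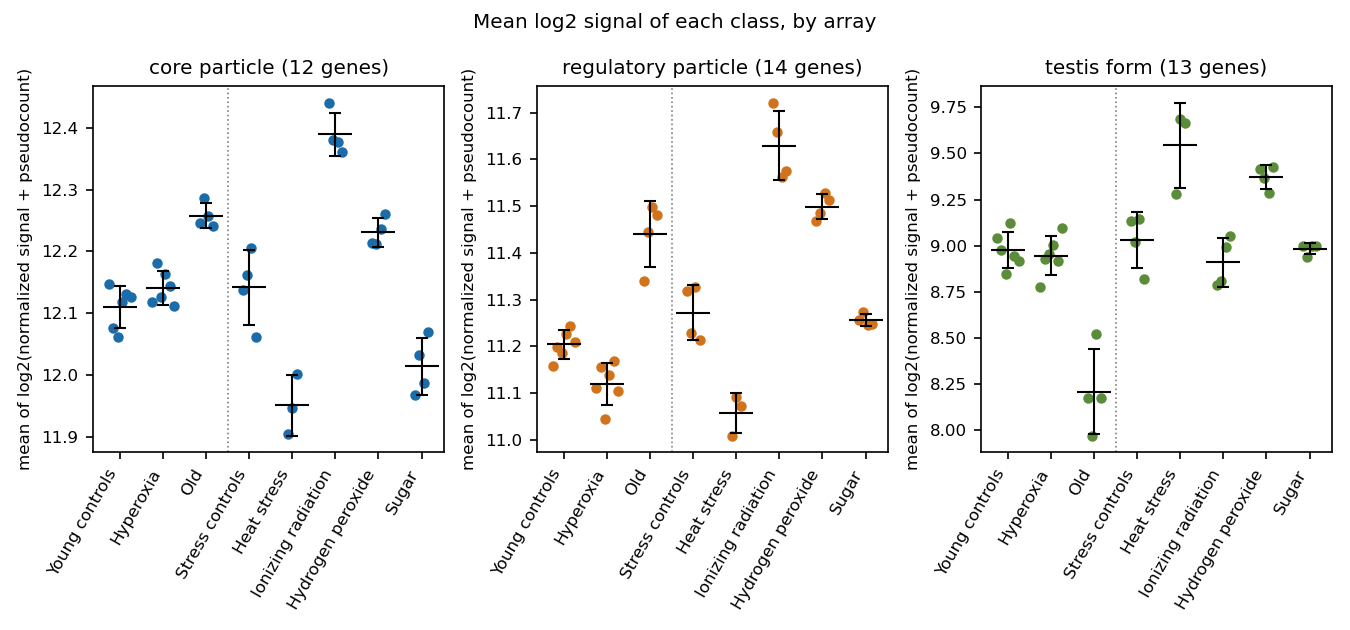
Mean of log2(normalized signal + pseudocount) over the 12 core, 14 regulatory and 13 testis-form genes on each array (dots), by group; bars give the group mean and SD of the arrays, and the dotted line separates the aging study from the stress study. The 4 Ionizing radiation arrays lie above the 4 Stress controls for the core and regulatory genes, and the 4 Old arrays lie below all Young controls for the testis forms.

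Prosbeta5 carries the chymotrypsin-like site, the main protease site of the core. Its signal on the 4 Old arrays was 7350, 7577, 6760 and 7756, whereas in Young controls the lowest, median and highest values were 4191, 4592 and 4824. All Old arrays lay above all Young controls, a log2 difference of 0.68 (SE 0.08, limma adjusted p = 2.82e-08), and this was the only core or regulatory gene called in Old flies. In Hyperoxia Prosbeta5 ran from 5109 through a median of 5696 to 6091, also wholly above Young controls but by 0.30 (SE 0.07, adjusted p = 0.00137), below the 1.5-fold threshold. Old exceeded Hyperoxia by 0.38 (SE 0.08, adjusted p = 0.000253). In the stress study it was 6484, 6768, 6895 and 6963 after Ionizing radiation and 5409, 6153, 5207 and 5188 in Stress controls. The 2 groups did not overlap, and the difference was 0.31 (SE 0.08, adjusted p = 0.00556). Heat stress (5188, 5109 and 5164), Hydrogen peroxide (5125, 5677, 5740 and 5705) and Sugar (5038, 4438, 5232 and 5249) overlapped the Stress controls.

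Prosbeta2, which carries the trypsin-like site, did not follow Prosbeta5. In Hydrogen peroxide it was 5058, 4831, 5285 and 4784 and in Stress controls 6320, 6895, 7485 and 6320. Every peroxide array was lower, by 0.43 (SE 0.10, limma adjusted p = 0.00126), which is under 1.5-fold. After Ionizing radiation 3 arrays stood at 6719, 6743 and 6719, within the range of the controls, and replicate 1 stood alone at 10071. Heat stress arrays (5444, 4979 and 5276) and Sugar arrays (5645, 6299, 5663 and 5723) all lay below the Stress controls. The differences of -0.36 (adjusted p = 0.0158) and -0.21 (adjusted p = 0.213) did not pass. In Old flies it was 7169, 8321, 6949 and 7456, above the Young controls (5861, 6158 and 6546 as lowest, median and highest), with a difference of 0.28 (adjusted p = 0.0252).

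Prosbeta3, a structural beta subunit without a protease site, was 10540, 7251, 8236 and 8508 after Ionizing radiation, 7456, 8107, 8924 and 8366 in Hydrogen peroxide, and 6223, 6172, 6231 and 4631 in Stress controls. Both treated groups lay wholly above the controls, by 0.57 (SE 0.11, limma adjusted p = 0.000207) and 0.50 (SE 0.11, adjusted p = 0.000677). Against Sugar (4726, 5025, 5336 and 4831), both differences exceeded 1.5-fold: 0.78 for radiation (adjusted p = 2.16e-06) and 0.72 for peroxide (adjusted p = 7.23e-06). Prosbeta4, another structural subunit, differed from Stress controls by 0.35 and 0.41 in the same groups (adjusted p = 0.00081 and 9.54e-05). Prosbeta7, also structural, differed in opposite directions: 0.37 after radiation (adjusted p = 0.00139), -0.23 in peroxide (adjusted p = 0.0444) and -0.37 in Heat stress (adjusted p = 0.00328). Radiation exceeded peroxide for Prosbeta7 by 0.59 (SE 0.08, adjusted p = 6e-06).

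None of the alpha ring subunits, which form the gate, was called against controls. Prosalpha7 was 0.44 above Stress controls after radiation and passed the FDR, and Prosalpha2 was 0.49 above them and did not. Prosalpha5 passed in Hydrogen peroxide (0.39), and Prosalpha6 passed downward in Heat stress (-0.61) at the moderated test without being called. Prosalpha4 was below 0 in all 6 comparisons, from -0.18 to -0.10, and passed in none.

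Of the Rpt ATPases of the base, Rpt4 was the one called after Ionizing radiation. Its signal was 3514, 2287, 2185 and 2287, against 1644, 1579, 1732 and 1583 in Stress controls and 1258, 1462, 1142 and 1393 in Sugar. Radiation arrays lay above both groups, by 0.61 over Stress controls (SE 0.12, limma adjusted p = 0.000242) and by 0.92 over Sugar (SE 0.12, adjusted p = 5.58e-07). Replicate 1 was far above the other 3; without it the difference from Stress controls was 0.45, which is under 1.5-fold. Hydrogen peroxide (2113, 1541, 1783 and 2160) and Heat stress (1403, 1617 and 1583) overlapped the controls. Old arrays (2150, 2149, 2004 and 2489) were above all Young controls (1607, 1733 and 1963 as lowest, median and highest) by 0.31 (adjusted p = 0.0385).

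Rpt3, a neighbouring ATPase, went in opposite directions in heat and radiation. It was 897, 1196 and 1016 in Heat stress and 1851, 1810, 1650 and 1753 in Stress controls, a down-regulation of -0.76 (SE 0.12, limma adjusted p = 1.01e-05) with no overlap. After radiation it was 2745, 2135, 2417 and 2140, above every control by 0.40 (SE 0.11, adjusted p = 0.00487), and radiation exceeded Heat stress by 1.16 (SE 0.12, adjusted p = 2.29e-09). Peroxide arrays ranged from 1323 to 2043 and Sugar arrays from 1410 to 1605. Old arrays (2107, 2299, 2077 and 2116) lay above Young controls (1482, 1655 and 1699), by 0.40 (adjusted p = 0.00211). Rpt5 was 0.57 above Stress controls after radiation (adjusted p = 0.000147), just under 1.5-fold, and Rpt2 passed downward in Heat stress (-0.48).

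Rpn2, a large scaffold subunit of the base, was called up-regulated in Hydrogen peroxide and, less stably, after Ionizing radiation. Its signal was 1461, 1860, 1307 and 1660 after radiation, 1588, 1861, 1979 and 1599 in peroxide and 931, 858, 1129 and 970 in Stress controls. Neither treated group overlapped the controls; the differences were 0.67 (SE 0.19, limma adjusted p = 0.00779) and 0.83 (SE 0.19, adjusted p = 0.000838). The peroxide call was kept in all 8 fits that left out 1 array, but the radiation call in only 2 of 8. The radiation call was also lost with a pseudocount of 1, with normalization within each study and with either replicate block (adjusted p = 0.0132 and 0.0134). The Sugar arrays, at 1342, 1287, 1229 and 1205, also lay above all Stress controls, by 0.37 (SE 0.19, adjusted p = 0.231). Against Sugar the differences were 0.29 for radiation (adjusted p = 0.293) and 0.46 for peroxide (adjusted p = 0.0728), neither past the test, so the part of age and sucrose vials in the calls against Stress controls cannot be told apart from that of the treatments. Rpn1, the other scaffold, was -0.43 in Heat stress and 0.36 in Old flies and passed the FDR in both, without reaching 1.5-fold.

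Rpn8 and Rpn11 pair at the heart of the lid: Rpn11 is the enzyme that cuts ubiquitin off substrates and Rpn8 its inactive partner. Rpn8 was 1677, 1721, 1678 and 1599 after radiation, 1708, 1623, 1708 and 1694 in peroxide, and 1145, 1077, 1075 and 1101 in Stress controls. Replicates were tight and the groups did not overlap; the log2 differences of 0.59 (SE 0.09, limma adjusted p = 1.3e-05) and 0.60 (SE 0.09, adjusted p = 7.58e-06) lay at the 1.5-fold threshold. The radiation call was kept in only 3 of 8 fits that left out 1 array, where the difference ranged from 0.57 to 0.60, and was lost with a pseudocount at the 25th percentile, with normalization within each study, with array weights and without both arrays of high actin ratio. The peroxide call was kept in 8 of 8 such fits and lost with that pseudocount. Sugar arrays (1367, 1270, 1450 and 1392) were intermediate, 0.31 above Stress controls (adjusted p = 0.0359). Radiation and peroxide exceeded Sugar by 0.28 and 0.29 (adjusted p = 0.0298 and 0.0211). The radiation effect exceeded that of Hyperoxia, each against its own controls, by 0.63 (SE 0.12, adjusted p = 0.000549). This radiation effect also holds the age and sucrose vials of those arrays, whose part was not tested. In that test of the difference 2 members passed, Rpn8 and Rpt4 (2.78% of all genes upward), and none passed downward (3.34%), with 0 lower by limma at an unadjusted p under 0.05 (11.5% of all genes).

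Rpn11 itself was 2166, 2431, 2380 and 2221 after radiation, 2569, 2221, 2417 and 2425 in peroxide and 1926, 1616, 2001 and 1909 in Stress controls. Both treated groups lay above the controls, by 0.30 (limma adjusted p = 0.122) and 0.37 (adjusted p = 0.0434), and neither passed. In Heat stress it was 1243, 1516 and 1631, with 1 array above the lowest control. Radiation exceeded heat by 0.65 (SE 0.15, adjusted p = 0.00109).

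Rpn12, the lid subunit that joins last during assembly in yeast, had the largest fall of the 26 genes. It was 1011, 893 and 828 in Heat stress and 2117, 2079, 2074 and 1963 in Stress controls, a down-regulation of -1.15 (SE 0.14, limma adjusted p = 2.64e-07). In Hydrogen peroxide it was 1325, 976, 1354 and 1912, also below all controls but with replicate 4 close to them. The difference was -0.59 (SE 0.13, limma adjusted p = 0.000693). This peroxide call was kept in only 5 of 8 fits that left out 1 array, where the difference ranged from -0.75 to -0.44. It was also lost with a pseudocount at the 25th percentile, with median scaling, with normalization within each study and in a fit of the 2 groups alone. Sugar arrays (1882, 1900, 1482 and 1585) were lower by 0.27 (adjusted p = 0.217) and radiation arrays (2067, 2415, 1915 and 1977) overlapped the controls. Peroxide against Sugar gave -0.32 (adjusted p = 0.0689), which did not pass.

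Rpn6, which clamps the lid to the core, was the member that rose in heat while its class fell. It was 5715, 6819 and 7152 in Heat stress and 3764, 3736, 3863 and 3868 in Stress controls, up-regulated by 0.77 (SE 0.16, limma adjusted p = 0.000506). Radiation arrays (4300, 4472, 4645 and 4378) lay above the controls by 0.22 (adjusted p = 0.321). Peroxide arrays ran from 3809 to 4711 and Sugar arrays from 3740 to 3952, both overlapping the controls. In the aging study Rpn6 varied widely between replicates, from 2737 to 4367 in Young controls, 2737 to 4805 in Hyperoxia and 3221 to 4774 in Old. Of the lid and base subunits not yet described, Rpn5 passed the FDR after radiation (0.42), Rpn3 and the ubiquitin receptor Rpn13 passed in Hydrogen peroxide (0.31 and 0.37), all under 1.5-fold, and Rpn7 passed in none of the 6 comparisons.

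**Figure D3:**
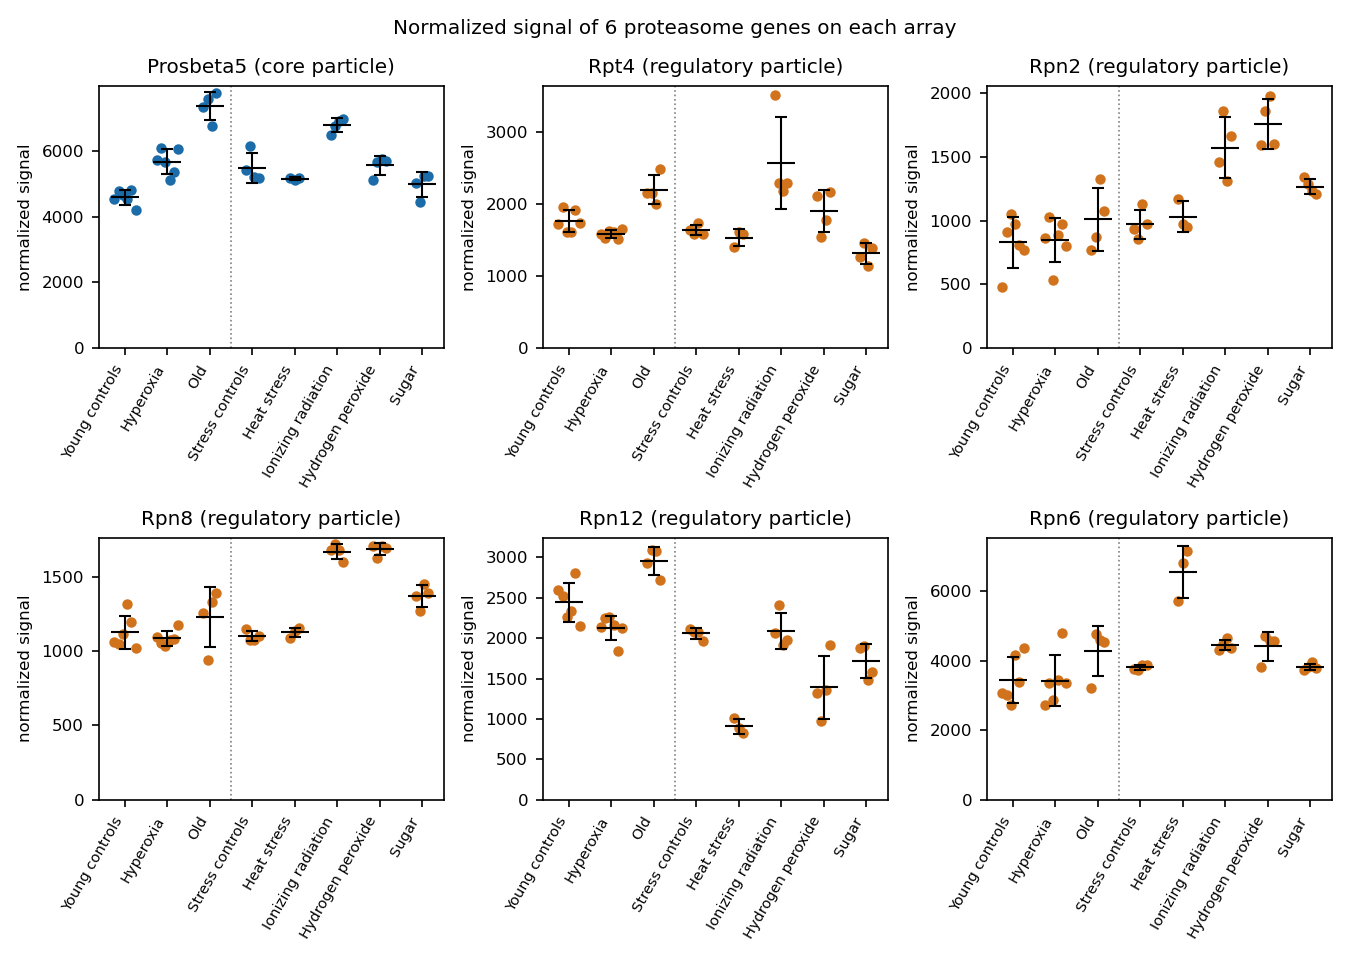
Normalized signal of Prosbeta5, Rpt4, Rpn2, Rpn8, Rpn12 and Rpn6 on each of the 35 arrays (dots), by group, with the group mean and SD as bars and all axes from 0; the dotted line separates the studies. Prosbeta5 is highest in Old, Rpn12 lowest and Rpn6 highest in Heat stress, and Rpn2 and Rpn8 highest in Ionizing radiation and Hydrogen peroxide.

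The testis forms separated most fully from their ubiquitous counterparts in age and in heat, and less fully in Hydrogen peroxide. For each of the 13 testis forms the ubiquitous subunit it replaces was also measured, 10 such partners in all, since 3 partners have a pair of testis forms. In Old flies the log2 fold change of the testis form was below that of its partner in 13 of 13 pairs, with a median difference of -1.05. In Heat stress it was above in 13 of 13, with a median difference of 0.70. In the other comparisons the testis form was above its partner in 7 (Hyperoxia), 4 (Ionizing radiation), 10 (Hydrogen peroxide) and 8 (Sugar) of 13. The median differences there were, in the same order, 0.03, -0.22, 0.40 and 0.11. Partners that are counted in 2 pairs make these counts smaller than 13 independent comparisons. In Hydrogen peroxide 6 testis forms also lay wholly above Stress controls (18.0% of all genes).

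Called down in Old flies were Prosalpha4T2 (-1.13), Prosalpha6T (-0.84), Prosbeta2R2 (-1.72), Prosbeta4R1 (-0.83), Prosbeta4R2 (-0.83), Rpn12R (-1.70) and Rpt3R (-0.76). In a fit of Old and Young controls alone, Prosalpha4T2, Prosbeta2R2, Rpn12R and Rpt3R were no longer called. Prosalpha6T, the alpha subunit needed for sperm maturation, was the most even: 804, 792, 889 and 856 in Old arrays, against 1437, 1537 and 1610 as lowest, median and highest in Young controls. The groups did not overlap (SE 0.09, limma adjusted p = 1.01e-08). Prosbeta2R2, a testis form of the subunit with the trypsin-like site, was 44.0, 50.0 and 54.1 on 3 Old arrays and 471 on replicate 3. That array lay within the Young controls (214, 439 and 604), so the groups overlapped despite the call (SE 0.31, adjusted p = 5.9e-05). Rpn12R, the testis form of the lid subunit Rpn12, behaved alike, at 25.3, 33.7 and 12.4 on the same 3 arrays and 195 on replicate 3, against 153, 253 and 368 in Young controls. The 3 low values are under the 38.6 added to each signal. The size of the fitted change of -1.70 (SE 0.29, adjusted p = 3.94e-05) therefore depends on that pseudocount, and replicate 3 lay within the Young controls.

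Rpt3R, the testis form of the ATPase Rpt3, was 364, 291, 281 and 513 in Old arrays and 490, 616 and 834 as lowest, median and highest in Young controls, with 1 Old array inside the control range (SE 0.14, limma adjusted p = 0.00013). For Prosalpha4T2 the call rested on Old replicate 2, which stood at 52.2 while the other Old arrays ranged from 534 to 665; without that array, the one with the highest actin ratio, the change was -0.41 and 6 testis forms were called. The median of all testis forms, called or not, was -0.68 without that array. Prosbeta4R1 and Prosbeta4R2 are both testis forms of Prosbeta4 and had the same fold change. Prosbeta2R1, at -0.95 with an SE of 0.39, did not pass, and Rpt4R was at 0.02.

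In Heat stress Rpt3R was up-regulated, at 583, 799 and 770 against 493, 377, 494 and 459 in Stress controls, with no overlap and a difference of 0.61 (SE 0.17, limma adjusted p = 0.00983). Without Heat stress replicate 2 or 3, or Stress controls replicate 2, it was not called. The other 12 testis forms were between 0.37 and 0.77, of which Prosalpha6T and Prosbeta5R1 passed the FDR without reaching 1.5-fold, and the arrays of 9 of the 13 lay wholly above the controls (17.6% of all genes). After Ionizing radiation 2 testis forms lay wholly below the controls (14.0% of all genes). Of these Prosalpha3T, the testis form of Prosalpha3, was called down: 118, 142, 112 and 141 against 239, 197, 225 and 231 in Stress controls. The groups did not overlap and the difference was -0.65 (SE 0.20); its adjusted p in the moderated test was 0.0159, above the 1% FDR, and the call comes from the nested F-test. It was 322, 306, 311 and 385 in Hydrogen peroxide and 262, 270, 272 and 303 in Sugar. Radiation was below both, by -1.15 (adjusted p = 9.21e-05) and -0.92 (adjusted p = 0.000738).

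Testis markers moved in the direction of the testis forms in Old flies and Heat stress, but not in every comparison. Of 25 measured, 16 were down-regulated in Old flies, with a median of -0.76, and their summed signal ran from 214664 to 240294 in Young controls and from 124112 to 148099 in Old, without overlap. In Heat stress 3 were up-regulated, with a median of 0.41 and a summed signal of 233928 to 275150 against 197404 to 219751 in Stress controls. After radiation 2 were down-regulated, the median was 0.23 and the summed signal was 241495 to 280339, wholly above Stress controls as in heat, while the testis forms had a median of -0.03. In Hyperoxia 1 was down-regulated and the marker median was 0.08, beside 0.02 for the testis forms. The sum there was 264404 to 280620, wholly above Young controls. The sum was 224111 to 243317 in Hydrogen peroxide, above Stress controls, and 171565 to 192970 in Sugar, below them. Marker medians were 0.25 in Hydrogen peroxide and -0.04 in Sugar, beside 0.34 and -0.03 for the testis forms. The brightest markers weigh most in a sum: Mst84Dc averaged 37324 and can 62.4. No marker was below 38.6 on all arrays; comr, at 14 arrays, and can, at 10, were there most often. The part of testis RNA in the values of the testis forms was not tested.

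**Figure D4:**
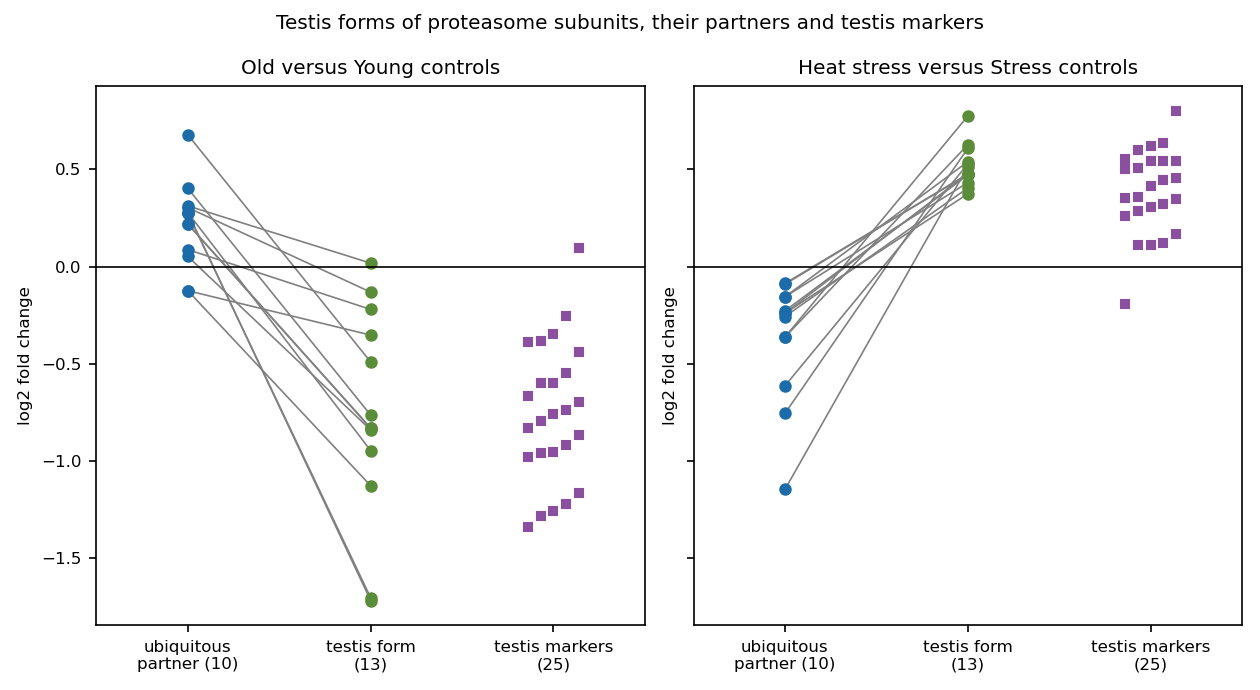
Log2 fold change of the 10 ubiquitous partners (blue), the 13 testis forms (green, joined to their partners by lines) and 25 testis markers (purple squares) in Old flies against Young controls and in Heat stress against Stress controls. Each line falls in Old and rises in Heat stress, where the testis-form medians are -0.83 and 0.48 and the marker medians -0.76 and 0.41.

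Tests between treatments gave the differences directly. Against Sugar, all 26 core and regulatory genes were above 0 after Ionizing radiation, with medians of 0.41 and 0.30 against 0.02 over all genes, and 12 passed the FDR upward at any fold (8.13% of all genes). Up-regulated at 1.5-fold were Prosalpha2, Prosbeta3, Rpt3 and Rpt4 (6.28% of all genes), and Prosalpha3T was down-regulated (8.18%); without Ionizing radiation replicate 1, 2 were up-regulated. Hydrogen peroxide against Sugar gave 3 up-regulated genes, Prosbeta3, Prosbeta5R1 and Rpt3R (6.49%), and none down-regulated (9.12%), with 2 lower by limma at an unadjusted p under 0.05 (18.6% of all genes). Radiation against peroxide gave Prosbeta7 and Rpn12 higher (4.93%) and Prosalpha3T, Prosbeta4R1 and Rpt3R lower (4.94%), and all 13 testis forms were below 0.

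Old against Hyperoxia gave 6 testis forms lower (9.41% of all genes): Prosalpha4T2, Prosalpha6T, Prosbeta2R2, Prosbeta4R1, Prosbeta4R2 and Rpn12R. None was higher at 1.5-fold (5.39%), with 9 past the FDR at any fold (7.93% of all genes), among them Rpt3 at 0.51 (adjusted p = 0.000132) and Prosbeta2 at 0.50 (limma adjusted p = 8.33e-05). The radiation effect was above the effect of age, each relative to its own controls, in 4 testis forms (7.01% of all genes): Prosalpha6T, Prosbeta2R2, Prosbeta4R2 and Rpn12R. In that order their radiation effects were 0.003, 0.13, 0.11 and 0.04, and their age effects -0.84, -1.72, -0.83 and -1.70. Most of each difference was thus the fall in Old flies. No member had a radiation effect called below its age effect (5.47%), with 2 lower by limma at an unadjusted p under 0.05 (13.4% of all genes). Of the core and regulatory genes 1, Rpn8, passed that test upward at any fold (0.47, adjusted p = 0.00833; 7.29% of all genes). The radiation effect in that test also holds the age and sucrose vials of its arrays, whose part was not tested.

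Genes that work with the proteasome were read from a list of 34, of which 27 were measured, and few were called. Up-regulated were 1 in Old flies (5.49% of all genes), 2 in Heat stress (5.98%), 2 after Ionizing radiation (7.84%), 2 in Hydrogen peroxide (9.00%) and 1 in Sugar (2.92%). Down-regulated were 2 in Old flies (9.42%), 1 in Heat stress (8.06%) and 1 in Hydrogen peroxide (9.74%). REG, an alternative activator cap of the core, was up-regulated after Ionizing radiation (0.61, SE 0.13, limma adjusted p = 0.000462), as was Ubc6, the ubiquitin-conjugating enzyme of the Rad6 family (1.12, SE 0.16, adjusted p = 1.58e-06). Ubc6 was also up-regulated in Heat stress (0.95) and Old flies (0.59). PI31, a proteasome-binding regulator, was up-regulated in Heat stress (0.66) and Roc1a, the RING subunit of cullin ligases, down-regulated there (-0.79). Pomp, the assembly chaperone of the core, was down-regulated in Hydrogen peroxide (-0.74, SE 0.16, adjusted p = 0.000605). Uch-L5, a deubiquitinase of the regulatory particle, and Npl4, a cofactor of the unfoldase TER94, were down-regulated in Old flies (-0.69 and -1.08) and up-regulated in Hydrogen peroxide (0.62 and 0.67). RpS27A, a ubiquitin fusion gene, was up-regulated in Sugar (0.60), and none of the 27 was called in Hyperoxia.

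Of 5 transcriptional regulators known to act on proteasome or stress genes, Keap1, the inhibitor of the Nrf2 homolog cnc, was up-regulated in Heat stress by 2.19 (SE 0.21, limma adjusted p = 3.34e-09), together with the heat shock factor Hsf (0.98, adjusted p = 3.91e-05). Hsf was also up-regulated in Old flies (0.62) and maf-S, the partner of cnc, in Hydrogen peroxide (0.92). None of the 5 was called after Ionizing radiation, but maf-S passed the FDR there without reaching 1.5-fold (0.57, SE 0.16, limma adjusted p = 0.00751). Radiation against Sugar gave 0.20 for maf-S (adjusted p = 0.423). The gene cnc itself was between -0.25 and 0.32 in the 6 comparisons and foxo between -1.32 and 0.16.

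The other genes whose pattern was most like that of the core and regulatory members were found by correlating each gene with their mean log2 value over the 35 arrays, each array relative to the mean of its own study's controls. The closest were CG1637 (Pearson r = 0.90), Idgf3, a chitinase-like growth factor (0.90), bero (0.89), CG13751, NimB4, AnxB10, CG7763, Tsp42Ei, CG3999 and Phk-3 (0.84). Each core or regulatory gene was correlated with the mean of the others, which gave r from -0.06 to 0.82 with a median of 0.60, and the 13 testis forms had r from -0.45 to -0.04. Arrays of a group share their treatment and all arrays share the normalization, so these values are a description.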

How the data were processed

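Whole-fly RNA was hybridized to 35 arrays, 1 per group of 25 males, and groups were taken from the sample labels. In the stress study replicates are separate vials of flies; for the aging study the labels do not say, and p-values there measure the spread between these samples. The authors deposited 1 table of signal intensity for 14010 probe sets. MAS5 is the tool in the notes of the submitters (version not given in the sources used here), and from the values 31 arrays had been scaled to 1 trimmed mean over the middle 96% of probe sets. The study's own expression model, a multi-chip one, was not applied here. No genome or sequence tables were used here, and a planned promoter motif search was not run.

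Intensities were quantile normalized over all arrays, 38.6 (the 10th percentile of all normalized values) was added, and log2 was taken (R 4.3.3, limma 3.58.1). After removal of 44 control probe sets, 13966 were tested in 1 fit of 8 group means (27 residual degrees of freedom, 30.2 after moderation). The platform table gave 1 gene for 12443 probe sets, several for 327 and none for 1196; symbols were updated for 12394 and not for 49. Where a gene had several probe sets, the brightest on average was used, giving 10844 genes. Calls against controls used the nested F-test over 6 comparisons at an FDR of 1% and 1.5-fold; the FDR is then not held within each comparison. Other comparisons used the moderated test at the same thresholds, and adjusted p-values are Benjamini-Hochberg over all probe sets.

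Members and gene lists (proteasome partners, regulators, testis, male accessory gland, muscle, female tissues) were chosen with earlier results of these data known. Full values are given for the called member with the largest change per class, direction and comparison, for catalytic subunits and for Rpn11; Rpn8, Rpt3, Rpt4, Prosbeta3, Prosalpha6T and Rpn12R were added after their values were seen, as was the count of genes past the FDR at any fold. The same code was tested on simulated data. Precision is limited by 3 to 6 arrays per group, and replicate arrays correlated at 0.931 to 0.982. Replicate numbers do not pair the samples: residuals of arrays with equal title numbers correlated at -0.09 to 0.08. The alternatives were other pseudocounts, scalings, fits, weights, blocks, a filter on low signal, second probe sets and leaving out arrays; leaving out the 2 arrays of high actin ratio together was chosen after seeing the data.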

Additional observations from a re-analysis of the deposited data

Results flagged for a closer look

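Among the 16 members whose array values were examined, 112 sets of 4 to 6 replicates were searched for an array standing far from the others, and 12 held one (the test has a rate of 0.05 under chance). Values here are log2(signal + 38.6). Ionizing radiation replicate 1 stood high for Prosbeta2 (13.30, others 12.72 to 12.73) and Rpt4 (11.79, others 11.12 to 11.18). Old replicate 3 stood high for Prosbeta2R2 (8.99, others 6.37 to 6.54), and Old replicate 1 low for Rpn6 (11.67, others 12.16 to 12.23). In Hydrogen peroxide, replicate 1 was low for Prosbeta5 (12.33) and Rpn6 (11.91), replicate 2 for Rpn8 (10.70) and replicate 3 for Prosbeta2R2 (8.598). Stress controls replicate 4 was low for Prosbeta3 (12.19, others 12.60 to 12.61), and Sugar replicate 2 high for Prosbeta2 (12.63). In Hyperoxia, replicate 3 was low for Rpn11 (10.08) and replicate 5 for Rpn12 (10.88).

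Differences between effects, each tested by limma as a contrast of contrasts, also drew attention. The radiation effect lay above the effect of age for Prosalpha6T by 0.84 (SE 0.13, limma adjusted p = 1.3e-05). For Prosbeta2R2 the difference was 1.84 (SE 0.45, adjusted p = 0.00357) and for Rpn12R 1.74 (SE 0.44, adjusted p = 0.00422). Prosbeta4R2 made 4 members. In the order Prosalpha6T, Prosbeta2R2 and Rpn12R, the radiation effects were 0.003, 0.13 and 0.04 and the age effects -0.84, -1.72 and -1.70. Most of each difference was thus the fall in Old flies. The radiation effect exceeded the effect of Hyperoxia for 2 members, Rpn8 by 0.63 (SE 0.12, adjusted p = 0.000549) and Rpt4 by 0.76 (SE 0.16, adjusted p = 0.00121). The radiation effect here is against Stress controls, which differ from the irradiated flies in age and sucrose vials too. No cause was tested.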

How the results depend on the processing

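No called value changed direction under any alternative run, though uncalled class medians near 0 changed sign. The filter on low signal moved none of the counts or medians beyond the limits used. Over the alternatives other than leaving out 1 array, 194 fold changes of called members kept their call and 27 lost it, and 198 class medians stayed within 1 SD of the arrays and 6 did not. Precision is limited by arrays per group and by signal near the 38.6 added, which holds for Rpn12R in Old flies. The cause of the shifts below was not tested.

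With a pseudocount of the 25th percentile the testis-form median in Old was -0.65; called members fell to 1 up in Heat stress, 0 down in Ionizing radiation, 1 up and 0 down in Hydrogen peroxide, 1 up for peroxide against Sugar and 0 up for radiation against peroxide. With median scaling, members past the FDR at any fold were 6 up in Old, 0 in Hyperoxia, 4 up in radiation and 0 down in peroxide; calls were 0 down in peroxide, 0 up for radiation against peroxide and 2 up for Old against Hyperoxia, and medians were 0.23 (core, radiation), 0.14 (core, peroxide) and 0.40 (regulatory, peroxide). Normalization within each study gave 1 called up in radiation, 0 down in peroxide and 1 up for radiation against peroxide. Moderated-test calls gave 0 down in radiation. Fits of only the 2 groups compared gave 3 called down in Old, 1 up in Heat stress, 0 down in peroxide, 0 up and 1 down for radiation against peroxide, 4 up for radiation against heat and 3 down for Old against Hyperoxia; past the FDR at any fold were 1 up and 3 down in Old, 0 up in Hyperoxia, 1 up and 2 down in heat, 2 up and 1 down in radiation, and 3 up and 0 down in peroxide. Array weights gave 1 called up in radiation and 2 up for radiation against Sugar, and past the FDR 1 down in radiation, 1 up and 2 down in Sugar. Second probe sets for Prosalpha7 and Prosbeta6, at mean signals of 39.9 and 112, gave core medians of 0.21 in radiation and 0.13 in peroxide. Without both arrays of high actin ratio, chosen after seeing the data, calls were 0 up in radiation, 2 up for radiation against Sugar, 7 up for radiation against heat and 1 up for Old against Hyperoxia.

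The samples are not paired by replicate number. With the title numbers as a replicate block, 6 members passed the FDR upward in radiation in place of 11, and Rpn2 was not called there under either block; no other call changed.

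Leaving out 1 array at a time, calls ranged from 0 to 4 up in radiation (0 without Ionizing radiation replicate 1), 1 to 3 up in heat, 0 to 1 down in peroxide, 0 to 1 down in Sugar, 2 to 4 up for radiation against Sugar, 7 to 11 up for radiation against heat, 1 to 3 up for radiation against peroxide, 1 to 3 up for peroxide against Sugar, 0 to 1 up for Old against Hyperoxia, 2 to 5 for radiation minus age and 2 to 4 for radiation minus Hyperoxia. Members past the FDR at any fold ranged from 6 to 9 up in radiation (6 without Stress controls replicate 4; 7 without Ionizing radiation replicate 1, 3 or 4), 2 to 3 up and 3 to 5 down in heat and 2 to 5 up in Old. The regulatory median in peroxide ranged from 0.23 to 0.32 and the testis-form median in Sugar from -0.15 to 0.031 (the latter without Stress controls replicate 1). The fits of 2 groups could not be made for the differences between effects.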

Other observations

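The probe set shared by Prosalpha1 and its testis form Prosalpha1R cannot be given to either gene and entered no count above. After Ionizing radiation it was 0.50 above Stress controls (SE 0.10, limma adjusted p = 0.000296), under 1.5-fold, and 0.63 above Sugar (SE 0.10, adjusted p = 1.21e-05). In Old flies it was at 0.18 (adjusted p = 0.155) and in Heat stress at -0.07 (adjusted p = 0.734).

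Other tissue lists were read beside the proteasome genes. The share of all genes called in each comparison is given in the Results, beside the counts of proteasome genes. Of 11 markers of the male accessory gland, 9 were down-regulated and 1 up-regulated in Hydrogen peroxide, 7 were down-regulated in Hyperoxia, 4 down-regulated and 1 up-regulated in Old flies, 3 down-regulated in Heat stress and 5 in Sugar. Of 8 muscle genes, 1 was up-regulated and 2 down-regulated in Old flies, 1 was up-regulated and 1 down-regulated after radiation, 1 was up-regulated and 2 down-regulated in peroxide, and 1 was up-regulated in Hyperoxia. Of 11 genes of female tissues, 1 was up-regulated in Old flies, 2 up-regulated and 1 down-regulated in Heat stress, and 1 down-regulated in each of Hydrogen peroxide and Sugar.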
